A study of Mus musculus with 8 samples.

Results

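The genes described here encode the TGF-beta, BMP and Nodal signalling system: 13 ligands, 10 receptors, 7 antagonists, 7 Smads and 4 Id genes, 41 in all. They were taken from the 35556 rows of the deposited array table as the rows whose gene symbol was on this list, and each of the 41 genes had 1 row. RNA was taken on Day 4 after mouse ES cells had been moved to N2B27, which contains no serum and lets them turn into neural progenitor (NP) cells. The *Sox3* null cells (4 arrays) carry GFP in place of the single *Sox3* exon, and the control cells (4 arrays) carry a conditional *Sox3* allele and are labelled *Sox3* positive. Both are R1 ES cells, no treatment other than the differentiation is given for either, and the methods describe 1 ES cell line of each genotype, so the loss of *Sox3* and other differences of the 2 lines cannot be told apart. Replicates 1 and 2 of each genotype come from differentiation batch 1 and replicates 3 and 4 from batch 2, and array values below are given in the order of replicates 1 to 4. The labels place the ES cells on gelatine, whereas the methods name irradiated feeder fibroblasts.

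Ligands of this family bind pairs of type I and type II serine/threonine kinase receptors at the cell surface. BMP receptors phosphorylate SMAD1 and SMAD5, whereas TGF-beta, activin and Nodal receptors phosphorylate SMAD2 and SMAD3, and both kinds join SMAD4 to act on genes in the nucleus. Secreted proteins such as noggin, chordin and follistatin trap ligands, LEFTY proteins block Nodal signalling, and SMAD6 and SMAD7 inhibit from within. BMP and Nodal signals hold back neural fate in the early embryo, and *Id* genes, which are activated by BMP signals, encode helix-loop-helix proteins that block proneural factors.

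The values are log2 signals, normalised and summarised by the authors, and differences are given as *Sox3* null minus control on that scale. They were fitted with limma over all 23410 rows with a gene symbol, with terms for genotype and batch, and a gene is said to have risen or fallen when its p, adjusted after Benjamini and Hochberg, did not exceed 0.05. *Sox3* itself read 8.39, 8.56, 8.67 and 8.37 in null cells, against 9.92, 9.84, 9.73 and 9.76 in control cells. The median signal of all named rows lay between 7.63 and 7.70 on the 8 arrays. The neural progenitor markers *Sox1*, *Sox2*, *Pax6*, *Nes*, *Zic1*, *Hes5*, *Fabp7* and *Vim* were all above the level of the olfactory receptor genes, which NP cells are not known to use and of which 95% of 1035 rows read below 6.16. The summed linear signal of these 8 markers ran from 38110 to 38860 in null cells and from 33110 to 34050 in control cells, so that the sums did not overlap. These sums rest mostly on *Vim*, *Fabp7* and *Sox2*, with mean log2 signals of 13.63, 13.04 and 12.50. Taken singly, 3 of the 8 markers did not overlap on the 8 arrays, against 4.6% of all rows. *Nes* and *Zic1*, 2 of the 8 (25%), rose, against 1.15% of all rows. Of 7 pluripotency markers, *Nanog* fell by 0.37 (adjusted p = 0.0464 from limma), and their sums overlapped, at 6588 to 9224 in null cells and 7668 to 9056 in control cells. Of 8 fibroblast markers, *Thy1* fell by 0.51, the sums were 919.8 to 1219 in null cells and 1130 to 1353 in control cells, and *Dcn*, *Lum* and *Postn* lay below the olfactory receptor level. None of the 8 measured mesoderm and endoderm markers passed in limma (none had an unadjusted p under 0.05), with sums of 1091 to 1342 in null and 1109 to 1502 in control cells. Of 7 neural crest and surface ectoderm markers *Tfap2b* rose, and their sums were 2590 to 4333 in null and 2517 to 5133 in control cells. At an unadjusted p under 0.05 from limma, 2 of these 7 were higher and 2 lower in null cells. Positive differences were found for 3 of these 7, 3 of the 7 pluripotency and 4 of the 8 fibroblast markers. Among the 8 mesoderm and endoderm markers 1 was positive. The part of these marker differences in the results below was not tested.

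Of the 41 signalling genes, 3 rose in *Sox3* null cells (*Tgfb2*, *Tgfb3* and *Bmpr1b*), 1 fell (*Fst*) and 37 did not pass. These 4 are 9.76% of the genes, against 1.55% of all 23410 rows tested. The rises compare with 1.15% of all rows and the fall with 0.393%. None of the 41 reached a fold change of 1.4 together with the adjusted p from limma, against 0.431% of all rows. The study used 1.4 as its size threshold on its own fold changes and test, so it need not mark the same genes here. An unadjusted p under 0.05 was reached by 13 of the 41 (31.7%), against 13.1% of all rows. Positive differences were found for 26 genes, against 50% of all rows. Among the 37 genes above the olfactory receptor level the same 4 passed in the fit over all rows, against 2.18% of rows above that level, and the 3 rises compare with 1.63%. The median size of the difference, without its sign, was 0.09 for the signalling genes and 0.06 for all rows. In bulk RNA, a change in the number of cells that use a gene and a change in RNA per cell cannot be told apart. All 4 calls were lost when every row of the table was fitted, unnamed rows included (adjusted p between 0.0605 and 0.167), and when each gene was fitted with its own variance only, a plain linear model (0.13 to 0.263).

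**Figure D1:**
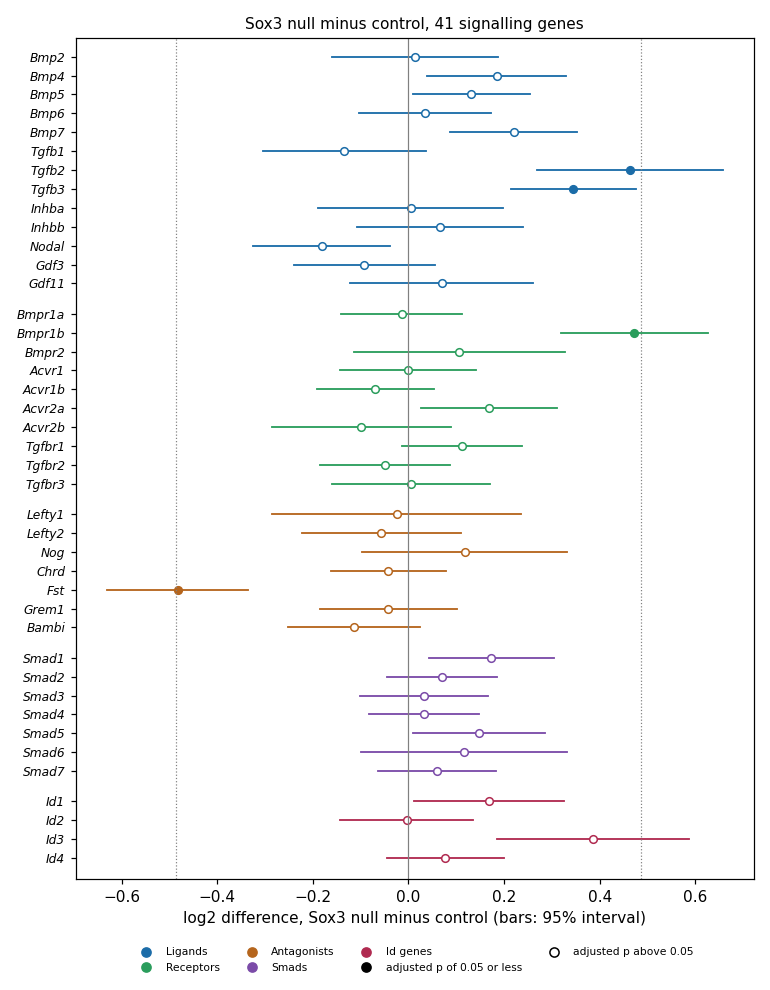
Log2 difference, *Sox3* null minus control (horizontal axis), for the 41 signalling genes grouped by role, with 4 arrays per genotype. Each point is the limma estimate, the bars are their 95% intervals, filled points have an adjusted p of 0.05 or less, and the dotted lines stand at a 1.4-fold change. *Tgfb2*, *Tgfb3* and *Bmpr1b* are the filled points above 0, at 0.46, 0.34 and 0.47, and *Fst* at -0.48 is the filled point below 0.

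Among the ligands, 2 of the 3 TGF-beta genes rose. *Tgfb2*, one of the isoforms that bind TGF-beta receptors and the one that needs the co-receptor betaglycan most, read 8.84, 8.86, 8.24 and 8.32 in null cells, against 8.67, 8.58, 7.54 and 7.60 in control cells. In either batch the null pair exceeded the control pair, but across batches the genotypes overlapped, since the null arrays of batch 2 lay below the control arrays of batch 1. The log2 difference was 0.46 (standard error 0.09, 95% interval 0.27 to 0.66, adjusted p = 0.0264 from limma), a 1.38-fold rise. It was 0.70 in batch 2 and 0.22 in batch 1. Without control replicate 3 the adjusted p was 0.0837, without control replicate 4 it was 0.0714, and without null replicates 3 and 4 in turn it was 0.0839 and 0.0798. *Tgfb2* also missed the threshold when batch was left out of the fit (0.827) or made a random block (0.432) and in batch 1 alone (0.403).

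*Tgfb3*, which encodes another TGF-beta isoform, read 7.58, 7.44, 7.68 and 7.73 in null cells, against 7.10, 7.24, 7.28 and 7.43 in control cells. The lowest null array lay just above the highest control array, so the genotypes did not overlap on the 8 arrays. The log2 difference was 0.34 (standard error 0.06, 95% interval 0.21 to 0.48, adjusted p = 0.0158 from limma), and the batches gave 0.35 (batch 2) and 0.34 (batch 1). The adjusted p was above 0.05 without control replicate 1 (0.0712), control replicate 3 (0.0596), null replicate 1 (0.0679) and null replicate 4 (0.0561). It was also above 0.05 when batch was left out of the fit (0.295) or made a random block (0.073), in batch 2 alone (0.374) and in batch 1 alone (0.269). *Tgfb1*, the isoform best known from immune cells and fibrosis, had a log2 difference of -0.13 (95% interval -0.30 to 0.04, adjusted p = 0.514). Its null arrays lay among its control arrays in batch 2 and below them in batch 1.

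Of the 10 receptors, *Bmpr1b* was the only one to pass the test. It encodes a type I BMP receptor, also called ALK6, which takes part in dorsal patterning of the neural tube beside the more widely used BMPR1A. *Bmpr1b* read 8.69, 8.47, 7.96 and 7.89 in null cells, against 8.01, 8.22, 7.36 and 7.52 in control cells. Both null arrays exceeded both control arrays in each batch, by 0.48 in batch 2 and 0.47 in batch 1, while the lower level of batch 2 made the genotypes overlap across batches. The log2 difference was 0.47 (standard error 0.07, 95% interval 0.32 to 0.63, adjusted p = 0.00746 from limma), a 1.39-fold rise. It passed in all 8 fits that left out 1 array (adjusted p up to 0.0328), and in 16 of 22 alternatives in all. The call was lost when batch was left out of the fit (0.74) or made a random block (0.294), in batch 2 alone (0.152) and in batch 1 alone (0.212). *Bmpr1a* differed by -0.01 (95% interval -0.14 to 0.11), and the type II receptor gene *Bmpr2* by 0.11 (95% interval -0.11 to 0.33).

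The stretches just before the starts of *Tgfb2* and *Bmpr1b* are shown because these genes rose together and SOX proteins bind short A/T-rich words. The 250 bases before each start are from the RefSeq promoter table of GRCm38.p6, all on the minus strand. Capitals mark ACAAAG, a core word of SOX binding sites, or its reverse complement CTTTGT, searched on both strands. The *Tgfb2* stretch is chr1:186705990-186706239, and those of *Bmpr1b* are chr3:141982265-141982514 and, for a start further into the gene, chr3:141931589-141931838.
Tgfb2: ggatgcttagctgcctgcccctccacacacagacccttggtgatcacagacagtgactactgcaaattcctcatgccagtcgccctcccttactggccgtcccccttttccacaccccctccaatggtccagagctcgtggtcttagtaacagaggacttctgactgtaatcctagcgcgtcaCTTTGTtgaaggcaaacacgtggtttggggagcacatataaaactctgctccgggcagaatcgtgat
Bmpr1b, first start: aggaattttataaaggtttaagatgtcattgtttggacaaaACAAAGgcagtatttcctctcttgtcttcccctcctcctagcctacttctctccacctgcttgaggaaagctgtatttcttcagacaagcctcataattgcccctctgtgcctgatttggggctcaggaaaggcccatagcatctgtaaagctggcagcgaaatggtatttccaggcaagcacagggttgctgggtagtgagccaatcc
Bmpr1b, further start: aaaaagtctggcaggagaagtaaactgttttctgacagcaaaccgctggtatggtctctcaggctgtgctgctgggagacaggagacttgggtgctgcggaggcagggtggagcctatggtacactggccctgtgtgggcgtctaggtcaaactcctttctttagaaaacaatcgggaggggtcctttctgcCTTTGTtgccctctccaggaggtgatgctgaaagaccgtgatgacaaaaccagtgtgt
The word begins 67 bases before the *Tgfb2* start and 209 and 58 bases before the *Bmpr1b* starts. Another *Bmpr1b* window in the table overlaps that of the further start and holds the same word. It occurs in 16.5% of the 32817 windows of this length in the table, and in 11 of the 32 windows of the 27 signalling genes that matched, so its presence is a description of these letters and not of binding. *Tgfb3* and *Fst* were not among the 27 genes with a window and were not searched.

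*Fst* was the only gene of the 7 antagonists to pass. It encodes follistatin, a secreted protein that binds activins tightly and some BMPs more weakly. *Fst* read 10.30, 10.37, 10.19 and 10.03 in null cells, against 10.67, 10.68, 10.73 and 10.74 in control cells. No null array reached the lowest control array, and the control arrays were close together (10.7 ± 0.0375, SD, n = 4) beside a wider spread in null cells (10.2 ± 0.145, SD, n = 4). The log2 difference was -0.48 (standard error 0.07, 95% interval -0.63 to -0.33, adjusted p = 0.00517 from limma), just short of the threshold of 0.49 that a fold change of 1.4 gives. It was -0.63 in batch 2 and -0.34 in batch 1. It passed in all 8 fits that left out 1 array, with an adjusted p of up to 0.0242, without the batch term (0.0486) and with batch as a random block (0.0141). The call for *Fst* was lost in batch 2 alone (0.0665) and in batch 1 alone (0.163).

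The other 6 antagonists had log2 differences between -0.11 and 0.12 and adjusted p-values between 0.491 and 0.963. They include noggin (*Nog*) and chordin (*Chrd*), which trap BMPs in the organiser of the embryo, gremlin (*Grem1*), the pseudoreceptor gene *Bambi*, and *Lefty1* and *Lefty2*. *Lefty2* and *Grem1* lay below the olfactory receptor level, so a difference in them may not have been detectable on these arrays.

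**Figure D2:**
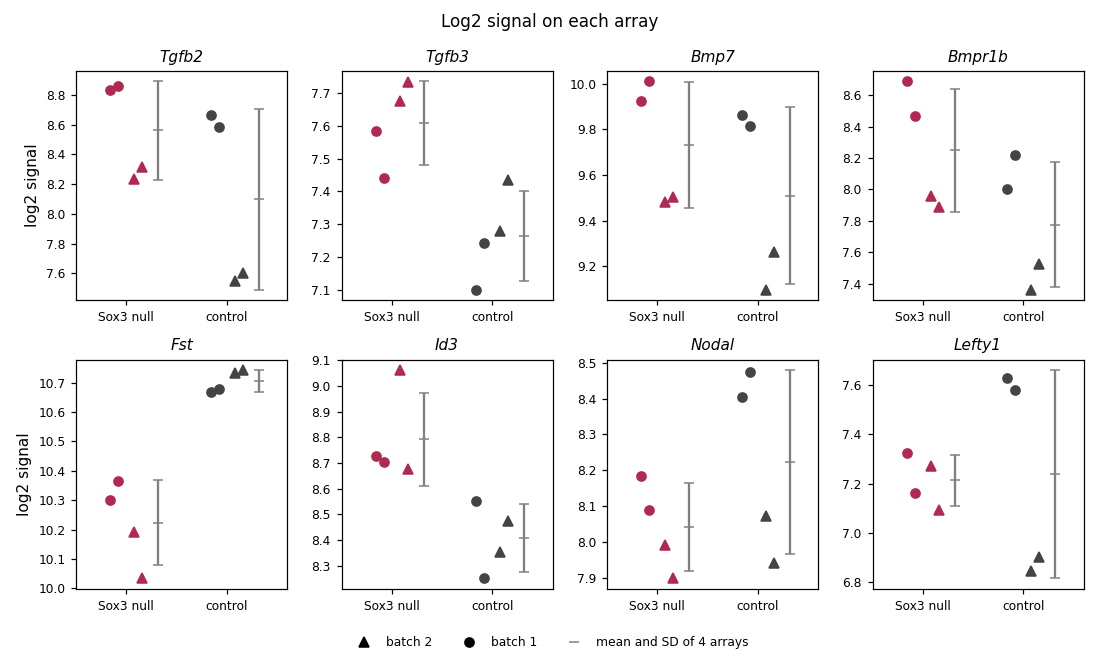
Log2 signal (vertical axis, a separate scale for each gene) of 8 signalling genes on each array, with *Sox3* null arrays left of control arrays. Batch 2 is drawn as triangles and batch 1 as circles, and grey bars give the mean and SD of 4 arrays. No null array of *Fst* exceeds 10.37 and no control array lies below 10.67, whereas the *Lefty1* control arrays fall into a pair near 7.6 and a pair near 6.9.

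The 5 BMP ligands among the signalling genes had positive differences without passing the test. *Bmp7*, a BMP of the dorsal neural tube and roof plate, read 9.92, 10.01, 9.48 and 9.50 in null cells, against 9.86, 9.81, 9.10 and 9.26 in control cells. Each pair of null arrays lay above the control pair of its batch, and the difference was 0.22 (standard error 0.06, adjusted p = 0.124 from limma). *Bmp4*, the ligand most used to hold ES cells from neural fate, read 8.55, 8.54, 8.27 and 8.35 in null cells, against 8.53, 8.45, 8.06 and 7.92 in control cells. The null arrays were again above the control arrays in both batches, with 0.32 in batch 2 and 0.05 in batch 1, and the difference over both was 0.18 (adjusted p = 0.252). *Bmp5* read 6.21, 6.23, 6.13 and 6.06 in null cells and 6.07, 6.14, 5.85 and 6.04 in control cells, a difference of 0.13 (adjusted p = 0.339) at a mean signal below the olfactory receptor level. *Bmp2* and *Bmp6* had 0.01 and 0.03, and *Bmp2* also lay below that level. The *Bmp* ligand genes measured among the further pathway genes below all had negative differences and did not pass in limma either. They were *Bmp8b* (-0.22, adjusted p = 0.117), *Bmp8a* (-0.11), *Bmp15* (-0.10), *Bmp3* (-0.0019) and *Bmp10* (-0.0009). Of these, *Bmp15* and *Bmp10* had mean signals below the olfactory receptor level.

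*Nodal*, the ligand that maintains pluripotent epiblast and induces mesendoderm, had a difference of the other sign. It read 8.18, 8.09, 7.99 and 7.90 in null cells, against 8.40, 8.47, 8.07 and 7.94 in control cells. The genotypes overlapped in batch 2 and were separate in batch 1, and the difference was -0.18 (standard error 0.07, 95% interval -0.32 to -0.04, adjusted p = 0.253 from limma). *Gdf3*, a ligand of pluripotent cells, *Gdf11*, which patterns the trunk axis, and the activin subunit genes *Inhba* and *Inhbb* lay between -0.09 and 0.07. The intervals of all 5 genes of this branch lay inside a fold change of 1.4 either way.

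*Acvr2a*, a type II receptor for activins and some BMPs, read 9.9998, 10.10, 9.88 and 10.08 in null cells, against 9.73, 9.88, 9.88 and 9.90 in control cells. All null arrays but replicate 3 lay above every control array, and the difference was 0.17 (standard error 0.06, adjusted p = 0.289 from limma). The 8 receptors other than *Bmpr1b* and *Acvr2a* lay between -0.10 and 0.11, with adjusted p-values from 0.448 to 0.998. They are the type I receptors *Bmpr1a*, *Acvr1*, *Acvr1b* and *Tgfbr1*, the type II receptors *Bmpr2*, *Acvr2b* and *Tgfbr2*, and *Tgfbr3*, which encodes betaglycan.

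None of the 7 Smads passed in limma, though all 7 differences were above 0, at 0.03 to 0.17, and an unadjusted p under 0.05 was reached by 2. These were *Smad1* and *Smad5*, receptor-activated Smads of the BMP branch. *Smad9*, measured among the further pathway genes below and outside these 7, had -0.10 (adjusted p = 0.639 from limma). Its mean signal lay below the olfactory receptor level. *Smad1* read 9.27, 9.50, 9.24 and 9.34 in null cells, against 9.20, 9.24, 9.11 and 9.11 in control cells. Its lowest null array lay just above its highest control array, and the difference was 0.17 (standard error 0.06, adjusted p = 0.229). *Smad5* read 10.26, 10.24, 10.22 and 10.40 in null cells, against 10.10, 10.24, 10.04 and 10.15 in control cells, a difference of 0.15 (adjusted p = 0.34) with overlap in batch 1. *Smad2* and *Smad3*, which serve TGF-beta, activin and Nodal, had 0.07 and 0.03, the shared *Smad4* had 0.03, and the inhibitory *Smad6* and *Smad7* had 0.12 and 0.06. All 7 intervals lay inside a fold change of 1.4, as did those of 98.1% of all rows.

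The 4 Id genes did not pass either, and 2 of them, *Id3* and *Id1*, had an unadjusted p under 0.05. *Id3* read 8.73, 8.71, 9.06 and 8.68 in null cells, against 8.55, 8.25, 8.35 and 8.47 in control cells. Every null array lay above every control array, and null replicate 3 stood above the rest. The difference was 0.39 (standard error 0.09, 95% interval 0.18 to 0.59, adjusted p = 0.074 from limma), and no alternative brought the adjusted p to 0.05 or less (0.0518 to 0.435). *Id1* read 8.78, 8.96, 8.87 and 8.79 in null cells and 8.88, 8.58, 8.64 and 8.63 in control cells, a difference of 0.17 (adjusted p = 0.336) in which control replicate 1 lay among the null arrays. *Id2* had -0.004 and *Id4* 0.08, and their intervals exclude a change of 1.4-fold.

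Over the 41 genes, all 4 null arrays lay on one side of all 4 control arrays for 4 genes, namely *Tgfb3*, *Fst*, *Smad1* and *Id3*, and this held for 4.6% of all rows. Both pairs were separate in the same direction in both batches for 10 genes (24.4%), against 12.1% of all rows. The intervals of 37 genes (90.2%) lay inside a fold change of 1.4, the exceptions being the 3 genes *Tgfb2*, *Bmpr1b* and *Fst* and, without passing the test, *Id3*.

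The size of the genotype difference could also depend on the differentiation batch. The 2 batches had the same sign for 27 genes and opposite signs for 14, and the shares over all rows were not counted. With a genotype by batch term in limma, none of the 41 genes had an adjusted p of 0.05 or less, as for 0% of all rows, and 5 had an unadjusted p under 0.05, against 3.05% of all rows. *Lefty1*, a feedback inhibitor of Nodal that is itself activated by it, read 7.32, 7.16, 7.27 and 7.09 in null cells, against 7.63, 7.58, 6.85 and 6.90 in control cells. Its null pair lay above the control pair in batch 2 and below it in batch 1, with differences of 0.31 and -0.36 (unadjusted p = 3.51e-04, adjusted p = 0.9997 from limma). The other genes were *Tgfb2*, *Bmp4*, *Gdf11* and *Fst*, with batch 2 minus batch 1 differences of 0.48, 0.27, 0.34 and -0.28 in the genotype effect.

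**Figure D3:**
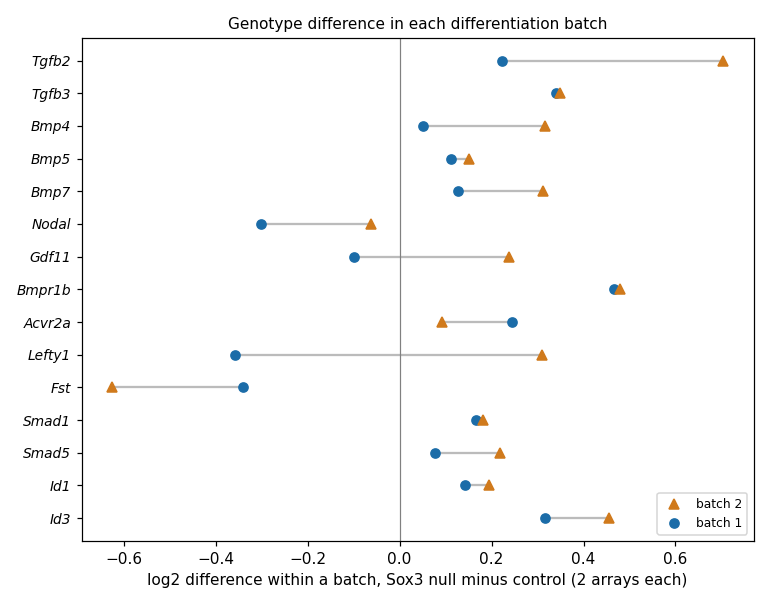
Log2 difference, *Sox3* null minus control (horizontal axis), within batch 2 (triangles) and batch 1 (circles) for 15 signalling genes, each from 2 arrays of either genotype. Grey lines join the values of a gene. *Bmpr1b*, *Tgfb3* and *Smad1* have nearly the same value in both batches, while *Lefty1* lies at 0.31 in batch 2 and -0.36 in batch 1.

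The batches themselves differed more than the genotypes for 28 of the 41 genes, and the share over all rows was not counted. The median size of the batch difference, without its sign, was 0.14 for the signalling genes and 0.08 for all rows. For genotype these medians were 0.09 and 0.06. With the same fit, 15 genes (36.6%) differed between the batches, against 20.2% of all rows. Of these, 13 were lower in batch 2, against 9.35% of all rows, and 2 were higher, *Tgfb3* and *Acvr1b*, against 10.9%. In the plain linear model 8 genes passed, against 11.9% of all rows in that model. The genes lower in batch 2 include 4 of the 5 BMP ligands among the signalling genes, namely *Bmp2*, *Bmp4*, *Bmp6* and *Bmp7*. The mean signal of *Bmp2* lay below the olfactory receptor level. The others were *Tgfb1*, *Tgfb2*, *Nodal*, *Bmpr1b*, *Bmpr2*, *Tgfbr3*, *Lefty1*, *Smad3* and *Smad7*. *Tgfb2* had the largest batch difference of the 41 genes, at -0.81 (standard error 0.09, adjusted p = 1.95e-04 from limma). *Smad7*, which encodes an inhibitory Smad that is switched on by the pathway it blocks, read 7.52 and 7.70 in null and 7.45 and 7.53 in control cells of batch 2, against 8.10 and 8.14 in null and 8.11 and 8.12 in control cells of batch 1. All 4 arrays of batch 2 lay below all 4 of batch 1, and the batch difference of *Smad7* was -0.57 (adjusted p = 1.27e-04). *Bmp7* differed by -0.57 and *Bmpr1b* by -0.66. None of the Id genes differed between the batches in limma (differences from -0.06 to 0.08, unadjusted p at least 0.386). The epithelial keratin genes *Krt8* and *Krt18* differed by -1.03 and -0.90, *Gata6* by -0.61 and *Tfap2b* by -0.78 between the same batches. Other markers went the other way. Of the neural crest and surface ectoderm markers, 4 were lower and 1 higher in batch 2 (*Foxd3*, 0.43). Of the pluripotency markers, 2 were lower and 2 higher (*Dppa5a*, 0.52, and *Tdgf1*, 0.24). Neural progenitor markers also differed, with 3 lower (*Zic1*, -0.35, *Nes*, -0.31, and *Hes5*, -0.27) and 1 higher (*Fabp7*, 0.19). Among the mesoderm and endoderm markers 3 were lower, *Gata6*, *Eomes* (-0.55) and *Foxa2* (-0.27), and none was higher. Fibroblast markers had 2 lower, *Col1a2* (-0.50) and *Col1a1* (-0.31), and none higher. The part of these markers in the batch differences of the signalling genes was not tested.

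**Figure D4:**
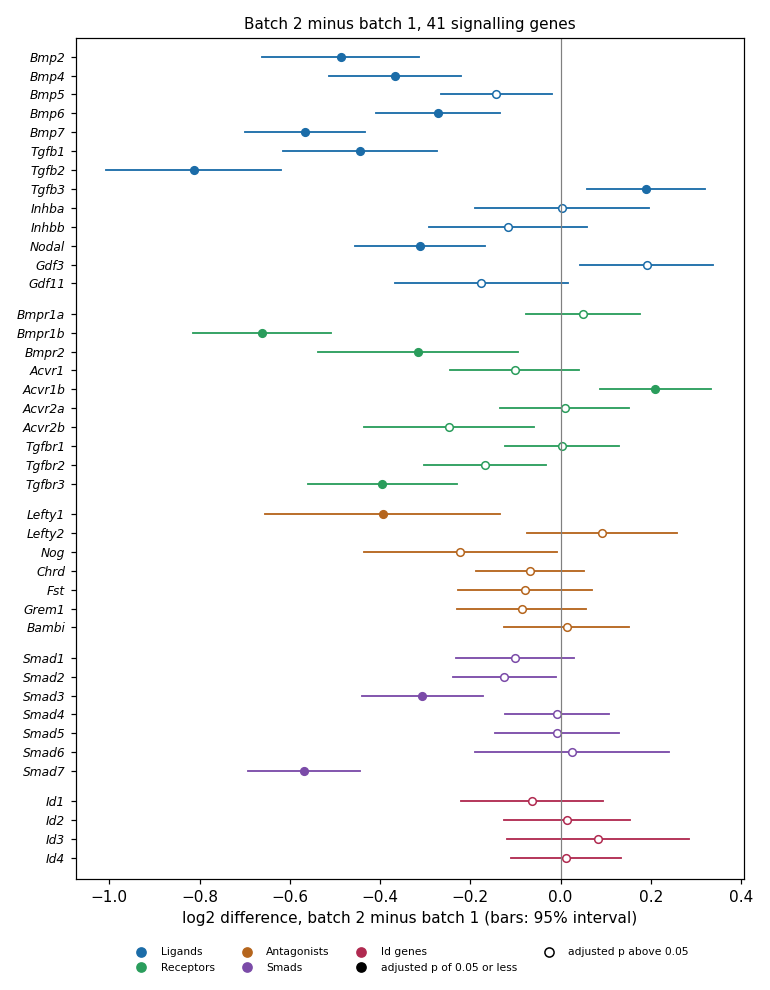
Log2 difference, batch 2 minus batch 1 (horizontal axis), for the 41 signalling genes by role, from 4 arrays of each batch. Points are limma estimates with batch and genotype in the fit, bars their 95% intervals, and filled points have an adjusted p of 0.05 or less. Filled points lie below 0 for 13 genes, with *Tgfb2* farthest at -0.81, and above 0 for *Tgfb3* and *Acvr1b*.

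Further genes of the pathway were taken from a list of 60, of which 55 were measured. Of these, 1 rose, none fell and 54 did not pass, 1.82% called against 1.55% of all rows. The gene that rose was *Tgfbi*, which encodes an extracellular matrix protein that TGF-beta induces. *Tgfbi* read 8.56, 8.67, 8.92 and 8.90 in null cells, against 8.25, 8.25, 8.57 and 8.64 in control cells, with separate pairs in both batches and a higher level in batch 2. The difference was 0.33 (standard error 0.05, adjusted p = 0.00741 from limma). It missed the threshold in the plain linear model (adjusted p = 0.0567), without the batch term (0.56) and with batch as a random block (0.138). The call for *Tgfbi* was also lost in batch 2 alone (0.391) and in batch 1 alone (0.163). The other 2 measured target genes, *Msx1* and *Msx2*, had 0.003 and 0.22 and did not pass (adjusted p = 0.997 and 0.488 from limma). Among the 16 other ligands, 8 other receptors and co-receptors, 16 antagonists and extracellular regulators and 12 intracellular factors, none passed in limma. Of them 3, 1, 5 and 1 had an unadjusted p under 0.05. Over the 55 genes, 11 (20%) had an unadjusted p under 0.05, against 13.1% of all rows. Of these 11, 8 were lower and 3 higher in null cells. Positive differences were found for 19 of the 55 (34.5%), against 50% of all rows and 63.4% of the 41 signalling genes. The largest negative differences were those of *Chrdl1* (-0.35, adjusted p = 0.0781 from limma) and *Foxh1* (-0.29, 0.0998).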

How the data were processed

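RNA from 8 samples at Day 4 of N2B27 differentiation was hybridised to Affymetrix mouse gene arrays, 1 array per sample. The deposited log2 signals per transcript cluster had been normalised and summarised by the authors. Partek is the tool listed in the submitters' notes. Neither the normalisation method nor a genome build is stated in the sources at hand. Of 35556 rows, 21789 had 1 gene symbol, 1621 had several and 12146 had none in the platform annotation. limma 3.58.1 (R 4.3.3) was run on the 23410 rows with a symbol, using genotype and batch as terms after the batch-corrected ANOVA of the methods. All p-values are two-sided, and adjusted p-values follow Benjamini and Hochberg over all rows fitted. In the main fit they rest on the spread between arrays after genotype and batch are taken out, moderated over all rows fitted. They do not measure the spread between ES cell lines of a genotype, and only 2 differentiation batches were sampled. The number of arrays limits the precision (median residual SD 0.0869). The signalling genes, lists and alternatives were chosen with earlier results of these data known. Array values are given for genes with an unadjusted p under 0.05 for genotype, the smallest p of each role and the 3 smallest for batch. *Lefty1* was chosen after its values were seen. *Tdgf1* counts as pathway gene and pluripotency marker. The fits were first tested on simulated data with known differences. Promoter sequences are from RefSeq (GRCm38.p6), and no other coordinates were used.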

Additional observations from a re-analysis of the deposited data

Results flagged for a closer look

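5 single arrays stood far from the other 3 of their genotype, among 82 gene and genotype groups examined. Chance flags about 1 in 20 groups of 4 independent values from a single normal distribution. Each group here spans 2 batches, so this rate may not hold for them. For *Inhbb*, null replicate 2 read 6.98, with the other null arrays between 6.61 and 6.66. For *Id3*, null replicate 3 read 9.06 beside 8.68 to 8.73. For *Gdf3*, control replicate 3 read 9.37 beside 9.24 to 9.25. For *Acvr2a*, control replicate 1 read 9.73 beside 9.88 to 9.90, and for *Acvr2b* control replicate 3 read 9.54 beside 9.95 to 9.99. Without null replicate 3 the *Id3* difference was 0.30 and did not pass.

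*Lefty1* had both null arrays above both control arrays in batch 2 and below them in batch 1. The genotype effect differed by 0.67 between the batches (batch 2 minus batch 1), with an adjusted p of 0.9997 from limma.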

How the results depend on the processing

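The count of 4 genes at an adjusted p of 0.05 or less for genotype was 0 over every row of the table (11 at an unadjusted p under 0.05), 0 in the plain linear model (10), 1 in batch 2 alone (*Tgfb2*, adjusted p = 0.0407), 0 in batch 1 alone (10), 1 without the batch term and 1 with batch as a random block (*Fst* in both). It ran from 2 to 4 when each array was left out in turn, with 2 without control replicate 3 and 2 without *Sox3* null replicate 4. All other alternatives gave 3 or 4. The count for batch was 8 in the plain linear model and 11 to 14 with an array left out, and that for genotype by batch was 0 throughout (2 to 7 at an unadjusted p under 0.05). The replicate number as a block gave 3 genes and *Tgfb2* an adjusted p of 0.0578. After genotype and batch were removed, arrays of the same number correlated across genes at 0.30 in batch 2 and -0.32 in batch 1, so the numbers were not taken as pairs. Over all 403 alternatives for single genes, no direction turned, 368 kept their side of the threshold and 35 lost it. The cause was not tested. Those kept include genes that never passed and the batch differences, which always passed. All losses fell on the genotype calls. *Tgfb2* passed in 12 of 22 alternatives, *Tgfb3* in 11 of 21 and *Bmpr1b* in 16 of 22. *Fst* passed in 18 of 22 and *Tgfbi* in 17 of 22. Changing only the variance, the batch term or the rows fitted left the estimate unchanged by design, so there its direction could not turn. For genes below the olfactory receptor level (4 of the 41), low signal limits what could be detected.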
